A study of Mus musculus with 3 samples.

Results

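GABAergic nuclei of the adult mouse basolateral amygdala (BLA) that carried Foxp2 RNA and no Rarb RNA were examined. They were chosen by their unique molecular identifier (UMI) counts, each UMI being 1 captured RNA molecule. A barcode with more than 200 genes and less than 20% mitochondrial UMIs was taken as a GABAergic nucleus if it held at least 1 UMI of Gad1 or Gad2, 0 UMIs of Slc17a7 and Slc17a6, and less than 0.1% of its UMIs from Slc1a2 and Slc1a3. Of 1646 such nuclei in libraries 2 and 3, 361 had at least 3 UMIs of Foxp2 and 0 of Rarb. They were 361 of the 9199 barcodes of all 3 libraries. These nuclei were compared with 327 GABAergic nuclei holding at least 3 UMIs of Foxp2 and at least 2 of Rarb, and with 725 holding 0 UMIs of Foxp2. Another 97 nuclei with Foxp2 and exactly 1 UMI of Rarb, and 136 with 1 or 2 UMIs of Foxp2, were in neither comparison.

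The study profiled nuclear RNA of the dissected BLA by droplet-based single-nucleus RNA sequencing (10x Genomics, 3' chemistry) to define its neuron types. All 3 libraries were of 1 condition, from male C57BL/6NRj mice at postnatal day 56, and no treated group was measured. Each dataset pooled BLA tissue of both hemispheres of 4 brains from 1 litter, so animals cannot be told apart within a library. The methods name no sort of the nuclei. Libraries 2 and 3 held 3792 and 4588 barcodes with 24354374 and 33049068 UMIs, and library 1 held 819 barcodes with 8078394 UMIs. Barcodes shared between libraries numbered 2 for libraries 1 and 2, 1 for libraries 1 and 3 and 7 for libraries 2 and 3, and 0 of them were shared among the chosen nuclei.

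Foxp2 encodes a forkhead transcription factor that in the amygdala is a widely used marker of the intercalated cells, clusters of small GABAergic neurons lying in the fibre tracts around the BLA. Rarb encodes the retinoic acid receptor beta, a nuclear receptor that is abundant in striatal projection neurons. The study assigned Foxp2 neurons to the intercalated cells and used Rarb for the neighbouring amygdalostriatal area, so the comparison asks how Foxp2 neurons without Rarb RNA differ from those with it.

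The chosen nuclei numbered 104 of 605 GABAergic nuclei in library 2, a share of 17.2% (95% exact Clopper-Pearson interval 14.3 to 20.4, counting error only), and 257 of 1041 in library 3, a share of 24.7% (22.1 to 27.4). The mean share was 20.9% ± 5.30 (SD, n = 2 libraries), and the 2 intervals did not overlap. Nuclei with at least 2 UMIs of Rarb numbered 92 and 235, and nuclei without Foxp2 numbered 329 and 396. Foxp2 (ENSMUSG00000029563, plus strand of chr6:14901349-15441977, build mm10) and Rarb (ENSMUSG00000017491, minus strand of chr14:16430839-16819156) chose the nuclei, so their values are a description. Foxp2 ranged from 3 to 46 UMIs per chosen nucleus in library 2, with a median of 11, and from 3 to 75 in library 3, with a median of 13. In nuclei with Rarb, the median of Foxp2 was 12 and 15 UMIs, and Rarb itself ranged from 2 to 14 and from 2 to 51 UMIs. Gad1 and Gad2 each had a median of 1 UMI in the chosen nuclei of both libraries. The chosen nuclei held a median of 6479.5 and 5615 UMIs in libraries 2 and 3, against 7188 and 6744 in nuclei with Rarb and 5695 and 6518.5 in nuclei without Foxp2. The nuclei without Rarb were thus shallower than those with it in both libraries, and a nucleus counted at 0 UMIs of Rarb may hold Rarb RNA that was not captured.

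**Figure D1:**
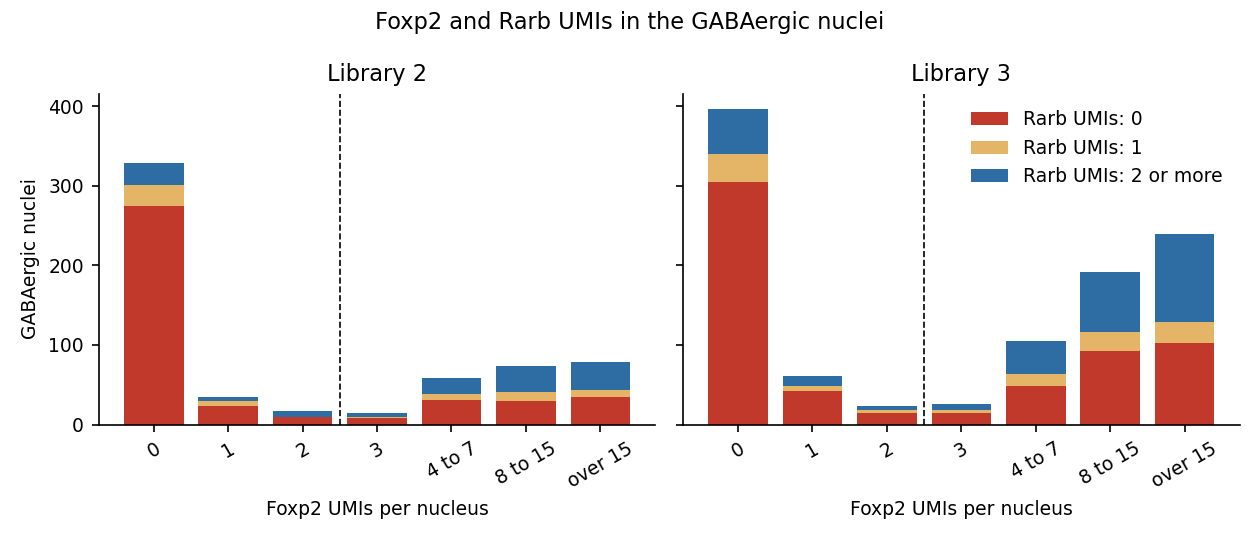
Number of GABAergic nuclei (vertical axis) by Foxp2 UMIs per nucleus (horizontal axis) in libraries 2 and 3, with bars split by Rarb UMIs. Chosen nuclei are the red parts right of the dashed line, 104 in library 2 and 257 in library 3, and in the class of over 15 Foxp2 UMIs they numbered 35 and 102 against 36 and 110 with at least 2 Rarb UMIs.

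Besides Foxp2, the label of these neurons rests on Chrm2, Rai14, Kcnh8 and Tll1. These 4 genes were chosen with earlier results of these data known, so a higher level in the chosen nuclei was partly fixed by that choice. The tests on them below are therefore no independent support for the label. All 4 were higher in the chosen nuclei than in nuclei with Rarb and higher than in nuclei without Foxp2, in both libraries, although none of the 4 was found in every chosen nucleus. Chrm2 encodes the M2 muscarinic acetylcholine receptor, a receptor coupled to inhibitory G proteins (ENSMUSG00000045613, plus strand of chr6:36388084-36528414, build mm10, GENCODE vM21). Its level, as UMIs per 1000000 UMIs (CPM) of the summed nuclei, was 304 and 256 in the chosen nuclei of libraries 2 and 3, against 56.7 and 59.2 with Rarb and 91.5 and 93.6 without Foxp2. The lowest chosen value thus lay above the highest value of both other populations. Relative to nuclei with Rarb the log2 fold change was 2.25 ± 0.14 (SE, n = 2 libraries; edgeR quasi-likelihood test, Benjamini-Hochberg adjusted p = 1.45e-07), and relative to nuclei without Foxp2 it was 1.63 ± 0.12 (adjusted p = 3.43e-08).

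Kcnh8 encodes a voltage-gated potassium channel of the ether-a-go-go family (ENSMUSG00000035580, plus strand of chr17:52602709-52979194). Its level was 114 and 144 CPM in the chosen nuclei, 2.52 and 9.79 CPM with Rarb and 32.2 and 21.1 CPM without Foxp2. The groups did not overlap, and nuclei with Rarb were below those without Foxp2. The log2 fold change was 4.11 ± 0.31 against nuclei with Rarb (edgeR adjusted p = 3.76e-07) and 2.37 ± 0.21 against nuclei without Foxp2 (adjusted p = 4.04e-07).

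Rai14 encodes an actin-associated ankyrin repeat protein first found as induced by retinoic acid (ENSMUSG00000022246, minus strand of chr15:10568969-10714624). Its level was 164 and 161 CPM in the chosen nuclei, 71.9 and 59.7 CPM with Rarb and 5.36 and 6.80 CPM without Foxp2. Rai14 therefore set both kinds of Foxp2 nuclei apart from the rest, with the smaller step between them: the log2 fold change was 1.35 ± 0.15 against nuclei with Rarb (edgeR adjusted p = 2.49e-05) and 4.75 ± 0.20 against nuclei without Foxp2 (adjusted p = 4.91e-11). Tll1 encodes a metalloprotease of the tolloid family, which cleaves matrix proteins and the BMP antagonist chordin (ENSMUSG00000053626, minus strand of chr8:64014931-64206271). Its level was 162 and 170 CPM in the chosen nuclei, 46.7 and 84.2 CPM with Rarb and 51.1 and 40.2 CPM without Foxp2. The chosen nuclei were above both other populations, whose Tll1 levels overlapped. The log2 fold change was 1.25 ± 0.19 (edgeR adjusted p = 0.000382) and 1.92 ± 0.18 (adjusted p = 5.64e-07).

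**Figure D2:**
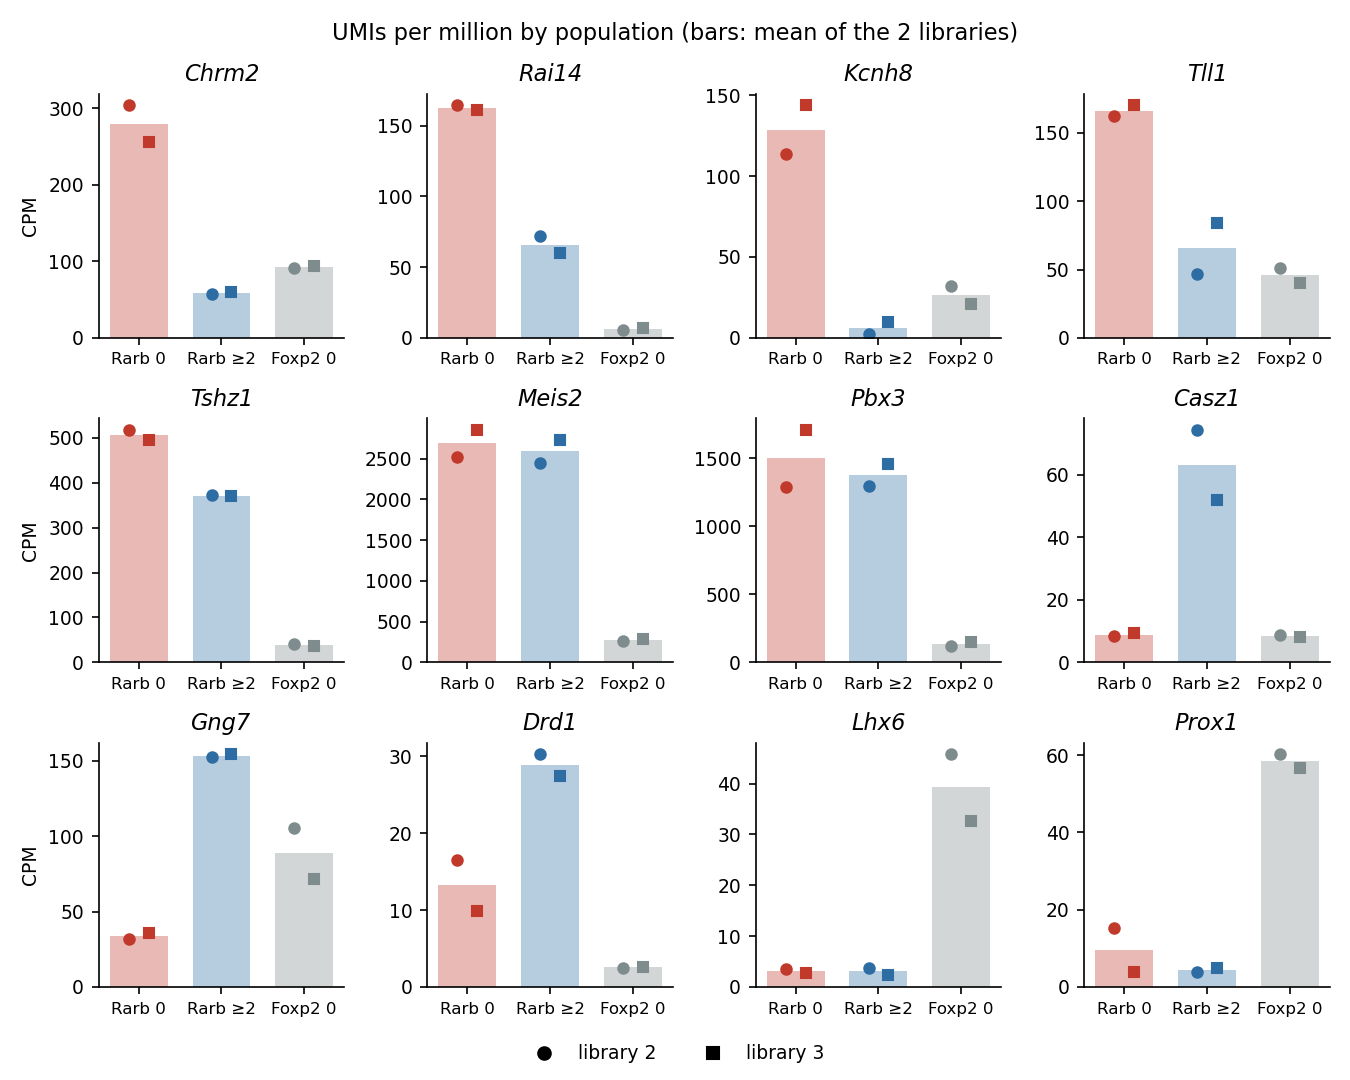
Level of 12 genes in CPM (vertical axes, from 0) in nuclei with Foxp2 and without Rarb (red), with Foxp2 and Rarb (blue) and without Foxp2 (grey). Bars are means of 2 libraries, circles library 2 and squares library 3; Chrm2, Rai14, Kcnh8 and Tll1 lie highest in the red bars, Tshz1, Meis2 and Pbx3 are high in both Foxp2 populations, and Casz1, Gng7 and Drd1 lie highest in the blue bars.

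As shares of nuclei with a UMI, Chrm2 was found in 54.8% and 47.9% of the chosen nuclei, Rai14 in 57.7% and 50.6%, Kcnh8 in 37.5% and 35.8% and Tll1 in 44.2% and 47.9%. Free RNA in droplets gives such UMIs to any barcode. In oligodendrocyte-like barcodes (192 and 337, median 2112.5 and 2038 UMIs), which should lack these genes, the share was 1.56% and 1.78% for Chrm2, 0.521% and 1.48% for Rai14, 0.521% and 0.297% for Kcnh8 and 0.521% and 1.78% for Tll1. With each nucleus thinned to 2000 UMIs, which left out 0 and 6 chosen nuclei, the shares in the chosen nuclei were 29.8% and 25.5% for Chrm2, 26.9% and 27.5% for Rai14, 18.3% and 19.1% for Kcnh8 and 23.1% and 26.3% for Tll1. In nuclei with Rarb, of which 1 and 0 were left out, the thinned shares were 6.59% and 8.09% for Chrm2, 13.2% and 11.1% for Rai14, 1.10% and 1.70% for Kcnh8 and 11% and 14.0% for Tll1. At equal depth the order of the Foxp2 populations was thus the same for each of the 4 genes in both libraries.

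The 4 label genes were spread unevenly among the chosen nuclei. In library 2, 16 of 104 nuclei had a UMI of none of the 4 (15.4%, exact interval 9.06 to 23.8) and 20 had a UMI of all 4 (19.2%, 12.2 to 28.1). In library 3, 50 of 257 had none (19.5%, 14.8 to 24.8) and 39 had all 4 (15.2%, 11 to 20.2). Among nuclei with Rarb, 0 of 92 had all 4 in library 2 (exact interval 0 to 3.93%; 3 counts of the total would be 3.26%), and 2 of 235 did in library 3 (0.851%, 0.103 to 3.04). The label genes also occurred together: Chrm2 was found in 65.0% of the chosen nuclei with Rai14 and 40.9% of those without it in library 2, and in 63.8% and 31.5% in library 3. Kcnh8 was found in 50.9% of the nuclei with Chrm2 and 21.3% of those without it in library 2, and in 48.8% and 23.9% in library 3. These are shares of nuclei from the same libraries, with depth shared between the genes, and are a description.

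The Foxp2 nuclei also fell into groups that differed in the label genes. The 785 nuclei with at least 3 UMIs of Foxp2 were grouped by their other genes, leaving out the 8 genes of the rule, by Ward's tree on 10 principal components divided into 6 groups. The 4 label genes were not left out, so a difference in them between groups may be partly built in. Group 4 held 124 nuclei, of which 123 had 0 UMIs of Rarb, 0 had 1 UMI and 1 had at least 2. It took 40 of 104 chosen nuclei in library 2 (38.5%) and 83 of 257 in library 3 (32.3%), or 34.1% of all 361. The remaining 238 chosen nuclei lay in groups that they shared with Rarb nuclei: 146 in group 1 beside 126 with at least 2 UMIs of Rarb, 62 in group 3 beside 47, 18 in group 2 beside 123, and 12 in group 6 beside 6, while group 5 held 0 chosen nuclei and 24 with at least 2 UMIs of Rarb. The chosen nuclei were thus spread over 5 of the 6 groups. The median depth of the chosen nuclei was 7753 and 6545 UMIs in group 4 and 5920.5 and 5403.5 UMIs outside it, so the chosen nuclei in group 4 were the deeper ones in both libraries.

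The label genes were higher in group 4 than in the other chosen nuclei. Kcnh8 stood at 204 and 315 CPM in the chosen nuclei of group 4 against 42.3 and 60.0 CPM in the other chosen nuclei, and was found in 70.0% and 69.9% of the former against 17.2% and 19.5% of the latter. Chrm2 stood at 541 and 533 CPM against 118 and 120 CPM, Rai14 at 256 and 271 CPM against 93.0 and 107 CPM, and Tll1 at 269 and 300 CPM against 78.2 and 107 CPM. Even outside group 4, Chrm2 and Kcnh8 in the chosen nuclei lay above the 56.7 and 59.2 CPM and the 2.52 and 9.79 CPM of nuclei with Rarb. Other genes leading group 4 were Sgcd, encoding delta-sarcoglycan (6253 and 6182 CPM against 1811 and 2077 CPM), the calcium-binding copine Cpne4 (2189 and 2338 CPM against 788 and 924 CPM) and the phospholipase D family member Pld5 (793 and 747 CPM against 192 and 305 CPM).

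Other genes were lower in group 4 than in the other chosen nuclei, of which 5 are given here, chosen after their values were seen. Vwc2l, encoding a secreted protein of the von Willebrand factor C type, stood at 13.4 and 15.1 CPM in the chosen nuclei of group 4, at 410 and 432 CPM in the other chosen nuclei and at 881 and 802 CPM in nuclei with Rarb. The auxiliary kainate receptor subunits Neto1 and Neto2 stood at 26.9 and 43.5 CPM and at 10.8 and 16.7 CPM in group 4, against 454 and 437 CPM and 129 and 140 CPM in the other chosen nuclei. Tenm3, a teneurin that guides synaptic partner choice, stood at 91.4 and 85.4 CPM against 790 and 693 CPM, and the adhesion molecule Ncam2 at 172 and 214 CPM against 856 and 1029 CPM. The 15 genes that were lowest in the chosen nuclei of group 4 were picked by their step to the other chosen nuclei. Only the step from there to the nuclei with Rarb was free to vary. For 12, these 5 among them, the nuclei with Rarb lay above the other chosen nuclei in both libraries. For 3 (Tafa2, Thsd7a and Klhl32) they did not. The share over all genes was not counted, so 12 of 15 is not a result about the other chosen nuclei. Genes shared by the Foxp2 populations differed less: Meis2 stood at 2778 and 3381 CPM in group 4 and at 2322 and 2596 CPM in the other chosen nuclei, and Tshz1 at 672 and 677 CPM against 397 and 406 CPM. These groups were found from the same nuclei, after the data had been seen, and their values are a description without a test.

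**Figure D3:**
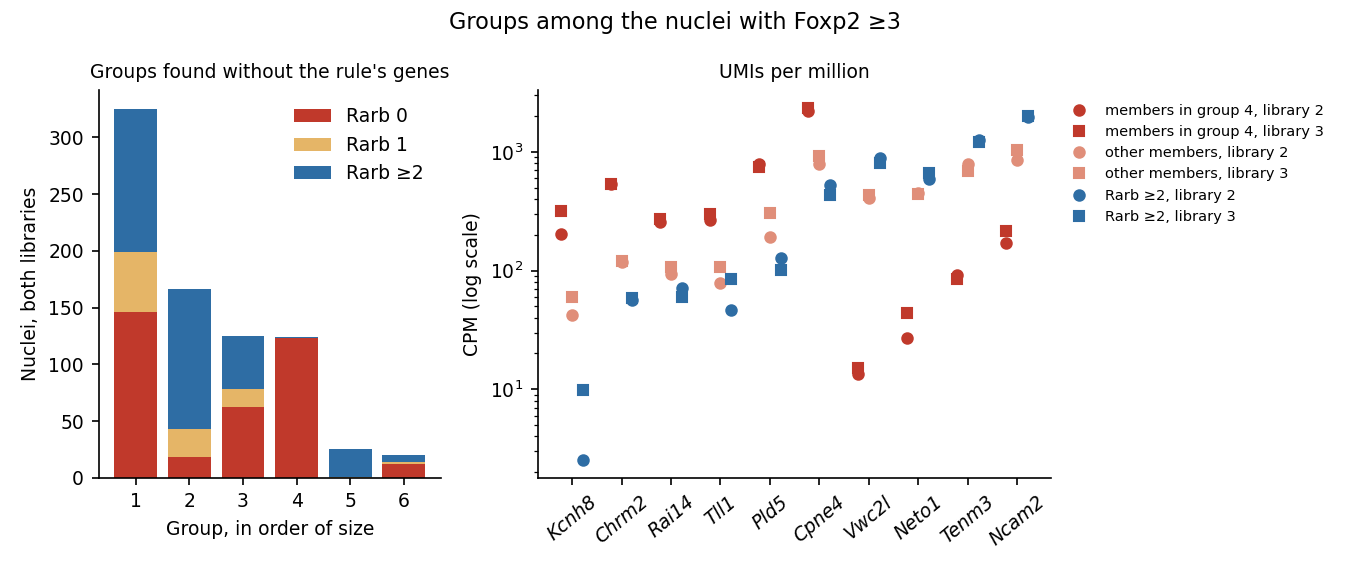
Left, number of nuclei with at least 3 Foxp2 UMIs (vertical axis) in each of 6 groups found without the rule's genes, split by Rarb UMIs; group 4 holds 123 nuclei without Rarb and 1 with at least 2 UMIs. Right, level in CPM on a log axis for 10 genes in the chosen nuclei of group 4 (dark red), the other chosen nuclei (light red) and nuclei with Rarb (blue), circles for library 2 and squares for library 3; Kcnh8 to Cpne4 are highest and Vwc2l to Ncam2 lowest in group 4.

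Across all genes, 551 of 10557 tested genes differed between nuclei without and with Rarb, 285 higher and 266 lower in the chosen nuclei (edgeR quasi-likelihood test with library as a block, Benjamini-Hochberg adjusted p under 0.05), that is 5.22% of the genes tested, 2.7% higher and 2.52% lower. Each of the 551 had the same direction in both libraries taken alone, but the same 2 libraries gave the calls, so this agreement was largely built in. Without the block on library, 192 genes passed, and all 192 were among the 551. With every nucleus thinned to 2000 UMIs, 364 of 6298 genes passed. Against nuclei without Foxp2, 1887 genes differed, 901 higher and 986 lower, that is 17.9%, 8.53% and 9.34% of the genes tested, and without the block 1139 did. The median log2 fold change over all genes was 0.02 and -0.02. The comparisons share the chosen nuclei. With library as a block, the p-values and SEs measure how far differences between populations varied over 2 libraries, not the spread of levels between them. Most of that spread was shared across genes, with 14 prior against 2 residual degrees of freedom. The sources give 4 brains for each dataset but do not settle whether the libraries came from separate pools of brains, so every SD, SE and p-value over n = 2 libraries may cover technical spread only. Rarb, Foxp2 and the other 6 genes of the rule were left out of these counts. The counts for gene lists below are to be read beside these shares, and a count near them is not a result about the list.

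Among the genes highest against nuclei with Rarb, besides Kcnh8 and Chrm2, were the synaptic scaffold gene Homer2, the adhesion phosphatase Ptprm and the chondroitin synthase Chsy3. Homer2 stood at 186 and 157 CPM in the chosen nuclei against 36.6 and 44.6 CPM with Rarb (log2 fold change 2.02 ± 0.17, edgeR adjusted p = 9.67e-07). Ptprm stood at 699 and 664 CPM against 151 and 229 CPM (1.83 ± 0.14, adjusted p = 3.74e-07), and Pld5 at 457 and 451 CPM against 127 and 102 CPM (2.03 ± 0.14, adjusted p = 2.45e-07). For each, both libraries of the chosen nuclei lay above both libraries with Rarb. The other genes of the 12 highest were Gm41414, 9630014M24Rik, Mcc, Fbxl7, Chsy3, Rerg and Eps8, of log2 fold change 2.59, 2.57, 1.98, 1.96, 1.90, 1.85 and 1.84. Gm41414 differed most between libraries among these, with 3.78 and 31.3 CPM in nuclei with Rarb and 131 and 133 CPM in the chosen nuclei.

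The lowest gene against nuclei with Rarb was Casz1, a zinc finger transcription factor, at 8.28 and 9.37 CPM in the chosen nuclei and 74.4 and 51.9 CPM with Rarb (log2 fold change -2.70 ± 0.28, edgeR adjusted p = 1.39e-05). Its level without Foxp2 was 8.66 and 8.10 CPM, so of the 3 populations the one with Rarb stood apart. Arhgap10, a GTPase-activating protein, stood at 13.0 and 12.7 CPM against 70.6 and 79.3 CPM (-2.56 ± 0.24, adjusted p = 3.53e-06). Col6a1, a collagen VI chain, stood at 21.3 and 21 CPM against 116 and 78.3 CPM (-2.09 ± 0.23, adjusted p = 2.17e-05). The groups did not overlap for any of these. The remaining genes of the 8 lowest were Gm9989, Gng7, Gm42722, Sema3e and Dach1, of log2 fold change -2.47, -2.13, -2.08, -1.87 and -1.86.

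**Figure D4:**
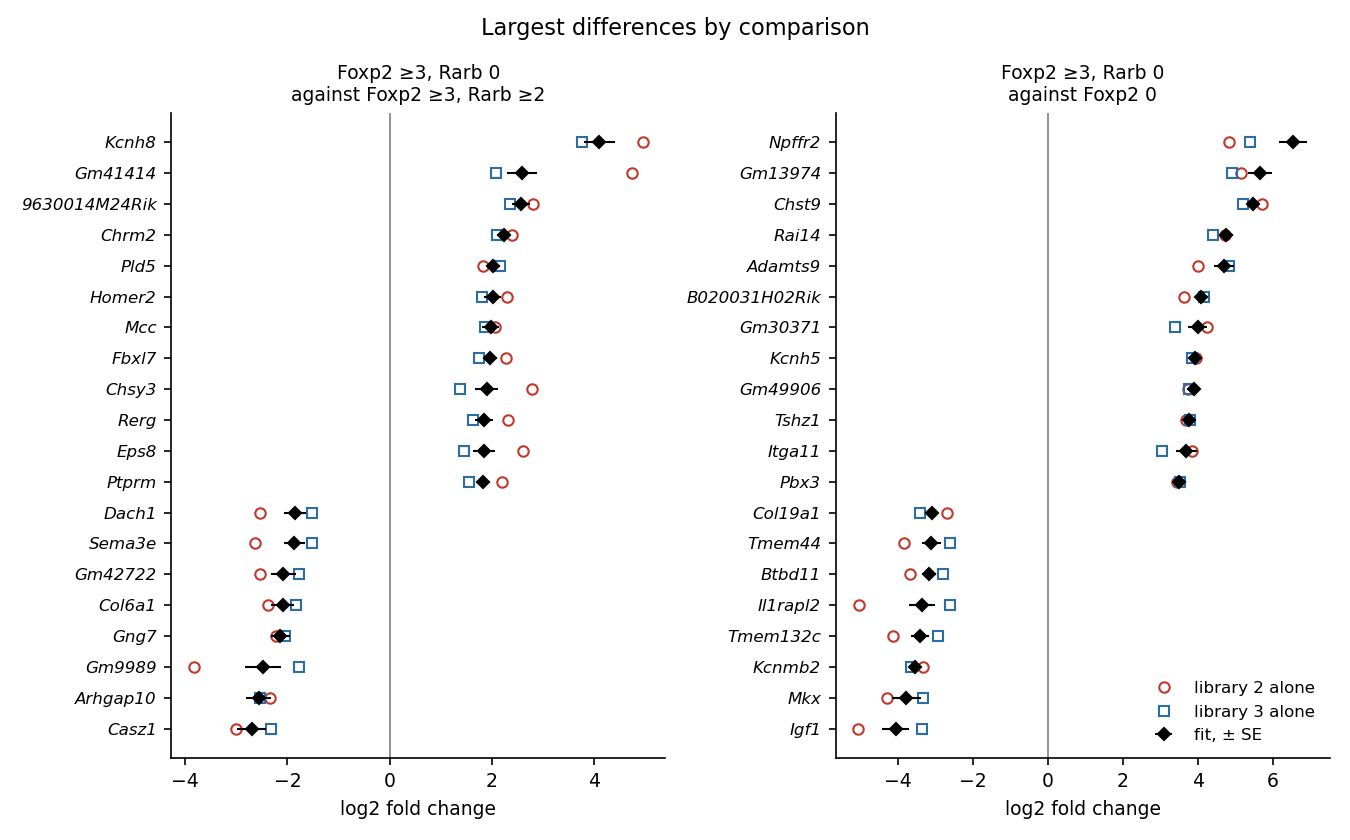
Log2 fold change (horizontal axes) of the 12 highest and 8 lowest genes in the chosen nuclei against nuclei with Rarb (left) and against nuclei without Foxp2 (right). Black diamonds are the fit with its SE, red circles library 2 alone and blue squares library 3 alone. Every gene lies on 1 side of 0 in both libraries because the choice of genes required it. Kcnh8 is highest on the left at 4.11 and Npffr2 on the right at 6.54.

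Striatal projection neurons carry dopamine signals through the adenylyl cyclase pathway. Of 28 genes on their list, 20 were tested, 7 were lower in the chosen nuclei than in nuclei with Rarb (Gng7, Ebf1, Adcy5, Bcl11b, Penk, Drd1 and Rgs9), 2 were higher (Ikzf1 and Pde10a) and 11 did not pass, with a median log2 fold change of -0.60 against 0.02 over all genes. Against nuclei without Foxp2, 7 of the 20 were higher (Meis2, Six3, Rxrg, Drd1, Arpp21, Rgs9 and Sp9), 4 lower (Drd2, Ebf1, Gng7 and Bcl11b) and 9 did not pass, with a median of 0.08. Of these, Ebf1 and Sp9 did not pass without the block (edgeR adjusted p = 0.0885 and 0.0738), nor Drd2 and Drd1 with at least 3 UMIs of Gad1 and Gad2 (0.0536 and 0.671). Gng7, a G protein gamma subunit that couples dopamine receptors to adenylyl cyclase, stood at 32.0 and 35.8 CPM against 153 and 154 CPM (-2.13 ± 0.19, edgeR adjusted p = 1.68e-06). Adcy5, the main striatal adenylyl cyclase, stood at 79.3 and 77.2 CPM against 194 and 215 CPM (-1.40 ± 0.13, adjusted p = 4.22e-06). Bcl11b, a transcription factor of striatal projection neurons, stood at 80.5 and 88.8 CPM against 218 and 226 CPM (-1.37 ± 0.14, adjusted p = 1.46e-05). These 3 genes and Rgs9, a regulator of G protein signalling (-0.96 ± 0.15, adjusted p = 0.000696), passed under all 11 alternative settings of that comparison.

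Other genes of the striatal list were less firm. Drd1, the D1 dopamine receptor, stood at 16.6 and 9.93 CPM in the chosen nuclei and 30.3 and 27.4 CPM with Rarb (-1.21 ± 0.32, edgeR adjusted p = 0.0355), and did not pass without the block (adjusted p = 0.131). Penk, which encodes proenkephalin, stood at 13.0 and 25.4 CPM against 59.3 and 45.0 CPM (-1.24 ± 0.29, adjusted p = 0.0152; without the block, adjusted p = 0.0766). Both were lower in the chosen nuclei of both libraries. Ikzf1 rested on 22 UMIs in the chosen nuclei and 1 UMI with Rarb, a ratio of 23.5 (exact interval 3.79 to 968, counting error only). These UMIs lay in 0.962% and 1.56% of the chosen nuclei of libraries 2 and 3, so a few nuclei carried the difference, and Ikzf1 did not pass without the block (adjusted p = 0.0673). Ebf1, an early B cell factor, did not pass without the block either (adjusted p = 0.313). Pde10a, the phosphodiesterase abundant in striatum, went the other way at 1425 and 1346 CPM against 745 and 972 CPM (0.69 ± 0.11, adjusted p = 0.00103; without the block, adjusted p = 0.238). Ppp1r1b, the defining striatal gene encoding DARPP-32, was near 0 in all populations, at 0 and 1.65 CPM in the chosen nuclei, 3.78 and 6.36 CPM with Rarb and 1.65 and 1.62 CPM without Foxp2.

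Most tested genes used for intercalated cells were higher in the chosen nuclei than in nuclei without Foxp2. Nuclei with Rarb were not tested against nuclei without Foxp2. Of 12 on the list, 9 were tested: 7 were higher in the chosen nuclei than in nuclei without Foxp2 (Tshz1, Pbx3, Meis2, Drd1, Oprm1, Erbb4 and Gabra3) and 0 lower, with a median log2 fold change of 1.67 against -0.02 over all genes. Of the 7, Erbb4 and Gabra3 did not pass without the block (edgeR adjusted p = 0.217 and 0.308), and Drd1 did not pass with at least 3 UMIs of Gad1 and Gad2 (adjusted p = 0.671). Tshz1, a zinc finger factor needed for intercalated cell development, stood at 518 and 495 CPM in the chosen nuclei and 41.2 and 35.6 CPM without Foxp2 (3.77 ± 0.13, edgeR adjusted p = 6.60e-12). Pbx3 and Meis2, homeodomain factors of the TALE class, stood at 1288 and 1708 CPM and at 2523 and 2854 CPM against 121 and 151 CPM and 267 and 289 CPM (3.50 ± 0.11, adjusted p = 2.51e-12, and 3.32 ± 0.094, adjusted p = 9.46e-13). Oprm1, the mu opioid receptor, stood at 200 and 205 CPM against 58.5 and 71.9 CPM (1.67 ± 0.14, adjusted p = 1.76e-07).

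Against nuclei with Rarb the same list gave 2 higher (Erbb4 and Tshz1), 2 lower (Penk and Drd1) and 5 that did not pass, with a median of 0.06. Meis2 stood at 2451 and 2726 CPM with Rarb (0.06 ± 0.085, edgeR adjusted p = 0.831) and Pbx3 at 1294 and 1458 CPM (0.12 ± 0.099, adjusted p = 0.666), so a difference in either was not detected. Tshz1 stood at 372 and 370 CPM with Rarb, a small difference (0.46 ± 0.11, adjusted p = 0.0215) that did not pass without the block (adjusted p = 0.352). Erbb4, the neuregulin receptor, stood at 10481 and 11386 CPM against 7222 and 8138 CPM (0.52 ± 0.066, adjusted p = 9.18e-05; without the block, adjusted p = 0.65). Its level without Foxp2 was 7036 and 7453 CPM, which overlapped the level with Rarb. Sp8 and Zfp503 were at or near 0 UMIs in all 3 populations, with at most 1.18 and 1.10 CPM.

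Most tested genes of the local interneuron classes were lower in the chosen nuclei than in nuclei without Foxp2. Of 11 tested genes of interneurons from the medial ganglionic eminence (MGE), 10 were lower than in nuclei without Foxp2 and 0 higher (median log2 fold change -2.72), and of 12 tested genes of interneurons from the caudal ganglionic eminence (CGE), 11 were lower and 1 higher (median -2.54). Among the lower ones, Egfr did not pass under every alternative setting, and Cck and Npy did not pass with DESeq2. Lhx6, the transcription factor of MGE interneurons, stood at 3.55 and 2.76 CPM in the chosen nuclei and 45.8 and 32.7 CPM without Foxp2 (-3.54 ± 0.35, edgeR adjusted p = 1.07e-06). Nxph1, a neurexin ligand, stood at 241 and 431 CPM against 2472 and 2646 CPM (-2.89 ± 0.16, adjusted p = 1.08e-09). Prox1, a transcription factor of CGE interneurons, stood at 15.4 and 3.86 CPM against 60.2 and 56.7 CPM (-2.84 ± 0.33, adjusted p = 6.73e-06). Adarb2, an RNA-binding protein of the CGE list, remained at 2587 and 1977 CPM in the chosen nuclei, found in 97.1% and 94.2% of them, although its level without Foxp2 was higher at 4866 and 5597 CPM (-1.17 ± 0.11, adjusted p = 7.71e-07). Lamp5 was the 1 CGE gene that was higher (30.8 and 24.8 CPM against 8.66 and 10.0 CPM, 1.55 ± 0.31, adjusted p = 0.00179; with DESeq2, adjusted p = 0.0731). Against nuclei with Rarb, 0 of 12 CGE genes passed in either direction and 2 of 11 MGE genes were higher (Maf and Grin3a), neither of which passed without the block (edgeR adjusted p = 0.0948 and 0.36). Of all tested genes 5.22% passed in that comparison, so with 12 genes a count of 0 is not a result about the CGE list.

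Against nuclei without Foxp2 the highest genes included the neuropeptide FF receptor Npffr2, the sulfotransferase Chst9, the secreted protease Adamts9 and the potassium channel Kcnh5. Npffr2 had 147 UMIs in the chosen nuclei and 3 UMIs without Foxp2, a ratio of 102 (exact interval 34.1 to 498, counting error only), in 24.0% and 28.0% of the chosen nuclei. Chst9 stood at 1103 and 987 CPM against 20.6 and 26.6 CPM (5.49 ± 0.16, edgeR adjusted p = 9.46e-13), and was found in 83.7% and 85.6% of the chosen nuclei. Adamts9 stood at 107 and 81.6 CPM against 5.77 and 1.94 CPM (4.69 ± 0.27, adjusted p = 1.90e-09). All of these had higher values in both libraries of the chosen nuclei, as the choice of named genes required. The others of the 12 highest, besides Rai14, Tshz1 and Pbx3, were Gm13974, B020031H02Rik, Gm30371, Gm49906 and Itga11, between 3.70 and 5.66. The 8 lowest were Igf1, Mkx, Kcnmb2, Tmem132c, Il1rapl2, Btbd11, Tmem44 and Col19a1, between -4.06 and -3.10. Igf1, the insulin-like growth factor made by some interneurons, stood at 1.18 and 6.07 CPM against 80.0 and 73.5 CPM, and Kcnmb2, an auxiliary subunit of the BK potassium channel, at 76.9 and 63.4 CPM against 818 and 823 CPM.

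The gene families of Chrm2 and Kcnh8 moved unevenly. Of the 5 muscarinic receptors 3 were tested. Chrm3, which couples to Gq proteins, was higher than in nuclei with Rarb, as Chrm2 was, at 256 and 226 CPM against 98.4 and 98.9 CPM (1.29 ± 0.15, edgeR adjusted p = 2.72e-05). Unlike Chrm2, it was lower than in nuclei without Foxp2, at 565 and 684 CPM (-1.34 ± 0.13, adjusted p = 6.85e-07). Chrm1 stood at 37.9 and 27.0 CPM, 25.2 and 45.5 CPM and 20.2 and 23.3 CPM in the 3 populations and passed in neither comparison (-0.29 ± 0.27 and 0.53 ± 0.27, adjusted p = 0.722 and 0.214). Chrm4 had at most 1.26 CPM and Chrm5 0 UMIs in all populations. Of 6 tested ether-a-go-go channels, 5 were higher than in nuclei without Foxp2 (Kcnh5, Kcnh8, Kcnh3, Kcnh4 and Kcnh1) and Kcnh7 was lower. Of these, Kcnh4, Kcnh1 and Kcnh7 did not pass without the block (adjusted p = 0.0589, 0.0984 and 0.203). Against nuclei with Rarb, Kcnh8 and Kcnh5 were higher and Kcnh1 lower, the last not without the block (adjusted p = 0.232). Kcnh5 stood at 769 and 838 CPM in the chosen nuclei, 425 and 427 CPM with Rarb (0.93 ± 0.11, adjusted p = 4.41e-05) and 50.3 and 58.6 CPM without Foxp2 (3.93 ± 0.13, adjusted p = 2.51e-12), so its level stepped down over the 3 populations. Tll1, itself a label gene, was the 1 gene of 14 tested tolloid and BMP genes that was higher in either comparison. Another 3, among them Fstl5 and Bmper, were lower than in nuclei without Foxp2. All genes tested gave 8.53% higher and 9.34% lower there, so with 14 genes these counts are not a result about the family.

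Among other potassium channels, 4 of 36 tested genes were higher than in nuclei with Rarb (Kcnn2, Kcnip1, Kcnb2 and Kcnab1) and 2 lower (Kcnq5 and Kcnc2), of which Kcnip1, Kcnb2, Kcnab1 and Kcnc2 did not pass without the block (edgeR adjusted p = 0.219 to 0.408). All genes tested gave 2.7% higher and 2.52% lower in that comparison, shares that also apply to the receptor lists below. Kcnn2, a small-conductance calcium-activated channel, stood at 514 and 474 CPM against 235 and 237 CPM (1.07 ± 0.12, edgeR adjusted p = 2.22e-05). Kcnq5, a channel of the M current, which muscarinic receptors suppress, stood at 517 and 645 CPM against 1198 and 1860 CPM (-1.37 ± 0.10, adjusted p = 3.76e-07). Both held in the 2 libraries without overlap. Of 7 tested serotonin receptors, Htr7 and Htr1f were higher and Htr4 lower, the last not without the block (edgeR adjusted p = 0.0971). Htr7, which couples to Gs proteins, stood at 65.1 and 60.1 CPM against 24.0 and 22.0 CPM (1.47 ± 0.22, adjusted p = 0.000377; after thinning, adjusted p = 0.0795). Htr1f, which couples to Gi proteins, stood at 1226 and 1340 CPM in the chosen nuclei, 854 and 804 CPM with Rarb (0.64 ± 0.11, adjusted p = 0.00119; without the block, adjusted p = 0.234) and 183 and 214 CPM without Foxp2 (2.74 ± 0.11, adjusted p = 5.09e-11). It was the 1 serotonin receptor higher than without Foxp2, while 3 were lower there (Htr2c, Htr2a and Htr4), with a median log2 fold change of -0.66. Of 3 tested dopamine receptors, Drd3 was carried by both Foxp2 populations, at 15.4 and 39.2 CPM in the chosen nuclei and 47.9 and 50.4 CPM with Rarb against 2.89 and 1.62 CPM without Foxp2 (3.76 ± 0.42 for the chosen nuclei, adjusted p = 5.01e-06). Of 3 tested adrenergic receptors, Adra1a was lower than in nuclei with Rarb, at 78.1 and 76.7 CPM against 155 and 157 CPM (-1.01 ± 0.14, adjusted p = 0.000185). Adra1b and Adra1a were lower than in nuclei without Foxp2.

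Of 16 tested ionotropic glutamate receptor genes, 4 were higher (Gria3, Grin3a, Gria2 and Grin2a) and 3 lower (among them Grid1 and Grik2) than in nuclei with Rarb, with a median log2 fold change of 0.06. Gria3, an AMPA receptor subunit, stood at 857 and 824 CPM against 277 and 497 CPM (1.14 ± 0.15, edgeR adjusted p = 0.000119; without the block, adjusted p = 0.0715). The populations did not overlap. Grin3a, Gria2, Grin2a, Grid1 and Grik2 did not pass without the block either (adjusted p = 0.36 to 0.747). Of 6 tested metabotropic glutamate receptors, 2 were lower than with Rarb, among them Grm7, and Grm8, Grm3, Grm4 and Grm5 were higher than without Foxp2. Of 12 tested GABA-A receptor genes, Gabra5 was higher and Gabra2 lower than with Rarb, and 4, among them Gabrg3, Gabra5 and Gabra3, were higher than without Foxp2. Without the block Grm7 and Gabra2 did not pass against nuclei with Rarb (adjusted p = 0.364 and 0.216), nor Grm4, Grm5 and Gabra3 against nuclei without Foxp2 (adjusted p = 0.0763, 0.409 and 0.308). Gabra5 did not pass after thinning in either comparison (adjusted p = 0.838 and 0.179).

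Of 43 tested axon guidance genes, 3 were higher than in nuclei with Rarb (Sema6d, Ephb2 and Epha6), 6 were lower (Sema3e, Slit3, Slit2, Epha4, Ephb1 and Dcc) and 34 did not pass, with a median log2 fold change of -0.06, where all genes tested gave 2.7% higher and 2.52% lower. Without the block Epha6, Epha4 and Dcc did not pass (edgeR adjusted p = 0.422, 0.163 and 0.774), nor did Ephb2 after thinning (0.179). Sema6d, a transmembrane semaphorin, stood at 1670 and 1596 CPM against 503 and 657 CPM (1.5 ± 0.11, edgeR adjusted p = 3.74e-07). Sema3e, a secreted semaphorin acting on plexin D1, stood at 23.7 and 52.4 CPM against 153 and 155 CPM (-1.87 ± 0.21, adjusted p = 2.22e-05). Slit2 and Slit3, ligands of Robo receptors, stood at 150 and 243 CPM and at 87.6 and 101 CPM against 639 and 553 CPM and 235 and 357 CPM (-1.57 ± 0.16, adjusted p = 1.39e-05, and -1.65 ± 0.14, adjusted p = 1.55e-06). The populations did not overlap for any of the 4. Of 21 tested cadherins, 6 were higher (Cdh22, Cdh6, Pcdh7, Cdh8, Cdh13 and Cdh18), 4 were lower (Pcdh19, Pcdh9, Cdh10 and Pcdh15) and 11 did not pass. Of these 10, Cdh22 and Pcdh19 passed without the block (edgeR adjusted p = 0.0176 and 0.044), and the other 8 did not (0.35 to 0.756). Gpr149, an orphan receptor, was lower at 16.6 and 23.2 CPM against 35.3 and 83.2 CPM (-1.63 ± 0.24, adjusted p = 0.000343; without the block, adjusted p = 0.0558), while Pth2r, the parathyroid hormone 2 receptor, stood at 39.1 and 41.9 CPM against 25.2 and 49.4 CPM (0.03 ± 0.24, adjusted p = 0.98).

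Of 55 tested forebrain transcription factors, 10 were higher than in nuclei with Rarb (among them Ikzf1, Eya1, Sox4, Nfib, Nr2f1, Nfia, Pax6, Maf and Tshz1) and 6 lower (Casz1, Ebf1, Bcl11b, Ikzf2, Zfhx4 and Rora), with a median log2 fold change of 0.08, where all genes tested gave 2.7% higher and 2.52% lower. Of those named, Nfib, Eya1, Casz1, Bcl11b, Ikzf2 and Zfhx4 also passed without the block, and the others did not (edgeR adjusted p = 0.0512 to 0.639). Of these 6, Eya1 (adjusted p = 0.173) and Ikzf2 (0.385) did not pass after thinning, nor Eya1 and Zfhx4 with at least 3 UMIs of Gad1 and Gad2 (0.0807 and 0.0784), nor Ikzf2 and Zfhx4 with DESeq2 (0.123 and 0.101). Nfib, a nuclear factor I protein, stood at 725 and 728 CPM against 266 and 324 CPM (1.31 ± 0.11, edgeR adjusted p = 1.75e-06). Against nuclei without Foxp2, 16 were higher and 26 lower, where all genes tested gave 8.53% higher and 9.34% lower. Of these factors, Ebf1 and Sp9 did not pass without the block, and Etv1 did not with DESeq2. Over all lists, 82 of 183 called genes of that comparison did not pass under every alternative. Pax6, which is known from the lateral ganglionic eminence and the developing intercalated cells, was among the higher ones at 45.0 and 38.1 CPM against 10.7 and 5.83 CPM (2.43 ± 0.26, adjusted p = 2.91e-06). Of 18 retinoid pathway genes 6 were tested and 0 passed against nuclei with Rarb (5.22% of all tested genes did), and with 6 genes a count of 0 is not a result about the pathway. Rxrg, the retinoid X receptor gamma, stood at 36.7 and 37.5 CPM against 41.6 and 32.3 CPM (0.08 ± 0.24, adjusted p = 0.937). Rxrg was the 1 retinoid gene that was higher than in nuclei without Foxp2 (9.89 and 5.51 CPM, 2.39 ± 0.28, adjusted p = 6.57e-06).

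**Figure D5:**
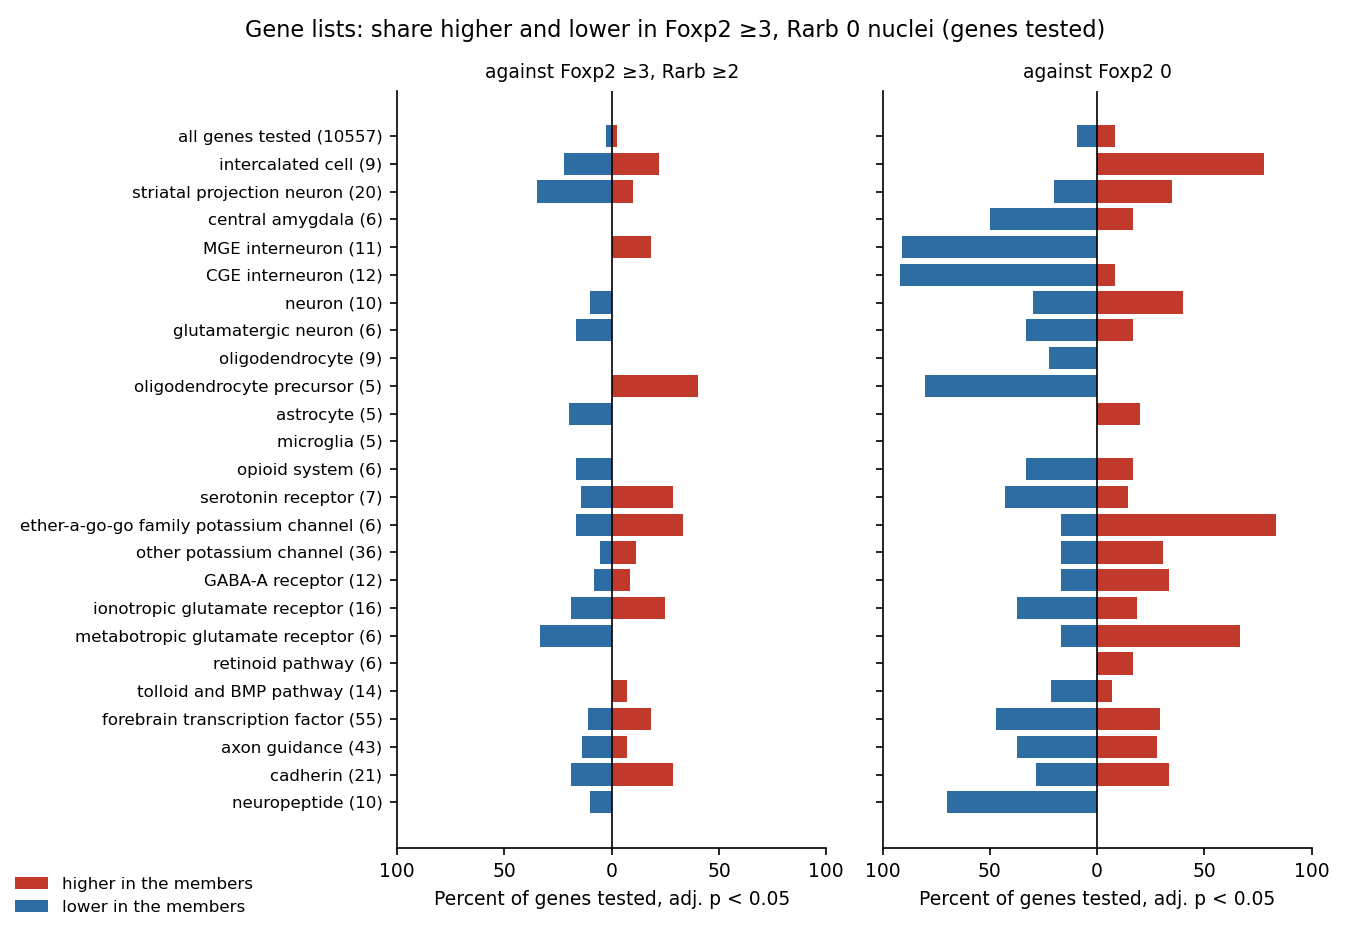
Share of the tested genes of each list (horizontal axes, percent) that were higher (red, to the right) or lower (blue, to the left) in the chosen nuclei at adjusted p under 0.05, against nuclei with Rarb (left) and without Foxp2 (right); the number tested stands in brackets and lists with under 5 tested genes are left out. All genes tested gave 2.7% higher and 2.52% lower on the left and 8.53% and 9.34% on the right, and the MGE and CGE interneuron lists show the longest blue bars on the right.

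Markers of other cell types were present at low levels in the chosen nuclei. The 10 oligodendrocyte genes summed to 159 and 295 CPM in the chosen nuclei, 198 and 223 CPM with Rarb and 272 and 458 CPM without Foxp2, with Mbp the most abundant at 63.9 and 77.8 CPM in the chosen nuclei. The 8 oligodendrocyte precursor genes summed to 389 and 593 CPM, of which Lhfpl3 gave 331 and 522 CPM, against sums of 724 and 530 CPM with Rarb and 963 and 874 CPM without Foxp2, and Olig1 was at 0 in library 2. Cspg4 and Pdgfra of that list were higher than in nuclei with Rarb, Cspg4 on 18 UMIs against 1 UMI, a ratio of 19.2 (exact interval 3.03 to 800, counting error only), and neither passed without the block (edgeR adjusted p = 0.108 and 0.0560). Of the 5 tested precursor genes, 4 were lower than in nuclei without Foxp2 (Sox10, Cspg4, Pdgfra and Lhfpl3), of which Cspg4, Pdgfra and Lhfpl3 did not pass without the block (edgeR adjusted p = 0.0781, 0.0552 and 0.0536) and Sox10 did not with DESeq2 (0.218). Mbp and Mobp of the oligodendrocyte list were also lower there, and both changed sign, without passing, with at least 3 UMIs of Gad1 and Gad2 (log2 fold changes 0.60 and 1.71, adjusted p = 0.0806 and 0.144). The 10 astrocyte genes summed to 367 and 419 CPM, against 469 and 542 CPM with Rarb and 239 and 261 CPM without Foxp2, with Slc4a4 at 239 and 277 CPM, and Gfap, Gja1 and Sox9 at 0 in both libraries. Slc4a4 was the 1 astrocyte gene called, lower than with Rarb (-0.43, edgeR adjusted p = 0.0441; without the block, adjusted p = 0.501) and higher than without Foxp2 (1.42, adjusted p = 2.03e-07), the latter under all 10 alternative settings. The 10 microglia genes summed to 43.8 and 67.3 CPM, with P2ry12 the most abundant at 11.8 and 13.8 CPM, and the 10 vascular genes to 22.5 and 25.4 CPM. Removing nuclei with at least 0.5% of UMIs from oligodendrocyte, precursor, microglia and vascular genes left 513 genes called against nuclei with Rarb and 1847 against nuclei without Foxp2.

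Levels among the chosen nuclei varied with the rule's own measure. Sorted by Foxp2 UMIs, Chrm2 stood at 91.6, 241 and 336 CPM in nuclei with 3, 4 to 7 and over 7 UMIs in library 2, and at 105, 151 and 282 CPM in library 3. Kcnh8 did not follow, at 160, 82.3 and 119 CPM in library 2 and 169, 185 and 136 CPM in library 3. Rai14 stood at 68.7, 99.97 and 189 CPM in library 2 and at 42.2, 177 and 166 CPM in library 3, and Tll1 at 22.9, 94.1 and 190 CPM and at 42.2, 155 and 181 CPM. Chrm2, Rai14 and Tll1 were thus lowest at 3 UMIs of Foxp2 in both libraries and Kcnh8 was not. In library 2 that class rested on 4 UMIs of Chrm2, 3 of Rai14, 1 of Tll1 and 7 of Kcnh8, so its order is uncertain. The values are a description over 8, 31 and 65 nuclei and 15, 48 and 194 nuclei. Their median depth also rose from 4289.5 to 8052 UMIs and from 3254 to 6750 UMIs. In the shallowest, middle and deepest nuclei, Chrm2 stood at 149, 305 and 346 CPM in library 2, a rise like that by Foxp2, and at 260, 179 and 291 CPM in library 3. Rai14 stood at 135, 175 and 168 CPM and at 198, 175 and 144 CPM, Tll1 at 142, 108 and 192 CPM and at 227, 179 and 151 CPM, and Kcnh8 at 97.1, 126 and 113 CPM and at 159, 101 and 161 CPM. By depth, none of the 4 had the same order in both libraries, and the part of depth in the values by Foxp2 was not tested.

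At the edges of the rule the values ran as follows. The 28 and 69 nuclei with at least 3 UMIs of Foxp2 and exactly 1 UMI of Rarb held Kcnh8 at 41.3 and 11.8 CPM and Chrm2 at 55.1 and 66.0 CPM, against 114 and 144 CPM and 304 and 256 CPM in the chosen nuclei at 0 UMIs. For Chrm2, nuclei with 1 UMI of Rarb thus lay close to those with at least 2. Gng7 stood at 55.1 and 63.6 CPM at 1 UMI of Rarb, between the 32.0 and 35.8 CPM of the chosen nuclei and the 153 and 154 CPM with at least 2 UMIs. Nuclei with exactly 3 UMIs of Foxp2 (8 and 15) held Meis2 at 1785 and 1519 CPM, and nuclei with 2 UMIs, just outside the rule (9 and 14), at 1186 and 987 CPM.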

How the data were processed

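Nuclear RNA of 3 adult BLA libraries was measured. The authors aligned the reads to the mouse genome, and the values they deposited are raw UMI counts per gene and barcode, whole numbers without normalization. The submitters' processing notes name Cell Ranger 7.0.1 and the build mm10. Further filters of the study on ribosomal and hemoglobin reads were not part of the rule, which was applied to libraries 2 and 3. Members, gene lists and tests were chosen with earlier results of these data known.

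Counts were summed per library over the 3 populations, which gave 6 sums of 793080 to 3087026 UMIs. They were fitted with edgeR 4.0.16 in R 4.3.3 (TMM, filterByExpr, quasi-likelihood F test, Benjamini-Hochberg over all genes, threshold 0.05), with library as a block because the populations of a library come from the same pooled brains. The fit had 2 residual and 14 prior degrees of freedom. SE is the absolute log2 fold change divided by the square root of F. CPM divides by all UMIs of a sum. Intervals are exact at 95% and cover counting error only. The genes named were the 12 highest and 8 lowest log2 fold changes among genes that passed, had 1 direction in both libraries and a UMI in at least 20% of the higher population's nuclei, the label genes, and up to 4 genes that passed in each list or, where none did, its most abundant gene. Further genes of the lists that passed, and Sgcd, Cpne4, Vwc2l, Neto1, Neto2, Tenm3 and Ncam2, were named after their values were seen. Some genes that met the rule are not reported here. Positions are from GENCODE vM21.

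Oligodendrocyte-like barcodes had at least 1% of UMIs from 6 oligodendrocyte genes, among them Mbp, Mog, Mag, Mobp and St18. Doublets were kept. As an alternative they were removed by a doublet score, 114 and 163 barcodes, together with a filter on hemoglobin UMIs at 0.2%. Other alternatives were DESeq2 1.42.0, no block, no filter on low counts, the compared pair alone, stricter minimums for Gad1 plus Gad2 (3), Foxp2 (5) and UMIs (2000), thinning, removal of glia, and Rarb at 1 or more in the comparison. The grouping of Foxp2 nuclei (2000 variable genes, scaled within library, 10 components, scipy 1.17.1) was added after the data had been seen.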

Additional observations from a re-analysis of the deposited data

Results flagged for a closer look

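Library 1 stood outside the rule and held 0 of the chosen nuclei, yet Foxp2 and Rarb RNA was present in it, with 1555 UMIs of Foxp2 and 640 UMIs of Rarb over its 819 barcodes. Of these barcodes 19 met the definition of a GABAergic nucleus, and 1 of the 19 had at least 3 UMIs of Foxp2, with 1 UMI of Rarb. In library 1, 70.1% of barcodes had a UMI of Gad1 or Gad2, but 15.1% were free of Slc17a7 and Slc17a6 UMIs, against 72.8% and 81.9% in libraries 2 and 3, and 29.2% were under the limit on Slc1a2 and Slc1a3, against 74.0% and 64.6%. Its median depth was 7725 UMIs, against 3315.5 and 4115.5.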

How the results depend on the processing

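The counts of genes that differed depended on the setting. Against nuclei with Rarb, 551 genes became 192 without the replicate block (library), all 192 shared with the 551, 253 with DESeq2, 236 with at least 3 UMIs of Gad1 and Gad2 and 364 after thinning. Against nuclei without Foxp2, 1887 became 1139, 843, 1056 and 1250 under the same settings. Fewer genes were tested after the stricter minimum (8559) and after thinning (6298), and the cause was not tested otherwise. The other settings gave 471 to 701 and 1744 to 2068 genes. With 1 library left out no test is possible. All 551 and all 1887 genes kept their sign in either library, which was largely built in because the same 2 libraries gave the calls. The share of chosen nuclei was 17.2% to 24.7% in the single libraries and 17.3% to 22.5% under the other settings. The median share of nuclei with a UMI over the 4 label genes fell on thinning from 48.7% to 25.4% in the chosen nuclei, from 24.4% to 9.18% with Rarb and from 11.5% to 5.79% without Foxp2. Divided into 4 to 12 groups, alternatives chosen after the data were seen, the tree gave 124 nuclei in the group nearly without Rarb each time. These are cuts of 1 tree on the same components, so they cannot show whether the group would hold under another grouping. Of the 66 genes called against nuclei with Rarb that the naming rule chose, 33 passed under every alternative that tested them, and of 94 against nuclei without Foxp2, 68 did. Over all members of the gene lists, which the text also draws on, 22 of 79 and 101 of 183 called genes did. Reversed against nuclei without Foxp2 were Mbp (0.60 with at least 3 Gad UMIs, 0.35 without other glia) and Mobp (1.71 and 0.93), which had passed as lower. Among genes that had not passed, P2ry12 (0.31 and 0.093 under those settings, -0.63 to 0.37 with 1 library left out) and Cfap54 (0.014 thinned, -0.46 to 0.070) also reversed, as did Bsg (-0.77 to 0.045), Rxrg (-0.18 to 0.23) and Wfs1 (-0.9998 to 0.31) against nuclei with Rarb with 1 library left out. Precision is limited by 2 libraries, by pooled brains, and by the depth, at which absence of Rarb UMIs does not show absence of Rarb RNA.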

Other observations

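The neuropeptide list also holds the neurexin ligand Nxph1. Of its 10 tested genes, 7 were lower in the chosen nuclei than in nuclei without Foxp2 (Pnoc, Sst, Nxph1, Vip, Nxph2, Cck and Npy). Of the others 0 were higher and 3 did not pass, with a median log2 fold change of -2.16, where all genes tested gave 9.34% lower. Sst, Nxph1 and Npy were already counted on the MGE list and Vip and Cck on the CGE list, so this is not a separate result for them. Sst, which encodes somatostatin, stood at 4.73 and 10.5 CPM in libraries 2 and 3 against 59.8 and 78.7 CPM (-3.05 ± 0.30, edgeR adjusted p = 8.47e-07), and Npy, which encodes neuropeptide Y, at 7.10 and 4.41 CPM against 23.1 and 21.4 CPM (-1.97 ± 0.38, adjusted p = 0.00117). Pnoc, which encodes prepronociceptin, had 2 UMIs in the chosen nuclei and 42 without Foxp2, a ratio of 0.0987 (exact interval 0.0116 to 0.380, counting error only). Against nuclei with Rarb, Penk was lower and the other 9 did not pass. Of 6 tested opioid system genes, Oprm1 was higher and Pnoc and Oprd1 lower than without Foxp2.

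Of 6 tested central amygdala genes, 0 passed against nuclei with Rarb (median log2 fold change 0.03), and against nuclei without Foxp2 Wfs1 was higher and Calcrl, Sst and Htr2a lower. Of all tested genes 5.22% passed against nuclei with Rarb, so with 6 genes a count of 0 is not a result about this list. Wfs1, which encodes the endoplasmic reticulum protein wolframin, differed between libraries, at 37.9 and 13.2 CPM in the chosen nuclei against 7.42 and 8.10 CPM (1.56 ± 0.37, edgeR adjusted p = 0.00615). Of 4 tested immediate early genes, Nr4a1 and Homer1 were higher than with Rarb. Nr4a1, a nuclear receptor induced by activity, stood at 32.0 and 23.2 CPM against 6.30 and 10.8 CPM (1.45 ± 0.34, adjusted p = 0.0174; without the replicate block, adjusted p = 0.0586). Of 10 tested general neuron genes, Stmn2 was lower than with Rarb, and against nuclei without Foxp2 4 were higher and 3 lower. Of 6 tested glutamatergic neuron genes, Sv2b was lower than with Rarb, and against nuclei without Foxp2 Camk2a was higher and Rspo2 and Etv1 lower. Of 2 tested ependymal genes, Cfap54 was lower than with Rarb and 0 passed against nuclei without Foxp2. Without the replicate block Homer1, Stmn2 and Sv2b did not pass against nuclei with Rarb (edgeR adjusted p = 0.365, 0.171 and 0.0673), nor Camk2a and Rspo2 against nuclei without Foxp2 (adjusted p = 0.313 and 0.077). Cfap54 did not pass after thinning (adjusted p = 0.227). Against nuclei without Foxp2, Calcrl did not pass with at least 3 UMIs of Gad1 and Gad2 (adjusted p = 0.0779), and with DESeq2 Wfs1, Npy, Oprd1, Cck, Nxph2 and Etv1 did not (adjusted p = 0.059, 0.0988, 0.233, 0.122, 0.204 and 0.0741).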
